A study of Mus musculus with 26 samples.

Results

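The comparison described here is between mesenteric arteries and aorta of mice made hypertensive with angiotensin II (AngII) and carrying an intact Sphk1 gene, which encodes sphingosine kinase 1. Members are the 4 mesenteric and the 4 aortic libraries labelled as hypertensive Sphk1 flox/flox, 8 of the 26 libraries of the series, compared over the 55414 gene identifiers found in the count tables of both vessels. These male mice had the C57BL6J background and were homozygous for the floxed Sphk1 allele without the Tagln-cre transgene (WT), so the gene was not recombined, and they received 490 ng/kg/min AngII from osmotic minipumps for 14 days at 12 to 14 weeks of age. The other groups used for reference were KO AngII mice (Sphk1f/fTagln-cre+, with Cre under control of Tagln, a gene of smooth muscle; 5 libraries per vessel) and normotensive WT sham mice (4 libraries per vessel). Poly(A) RNA was sequenced from vessel tissue and not from sorted cells, so fewer cells of a type and less RNA per cell cannot be told apart. The sources do not say whether replicate numbers mark the same animal in both vessels, or how many animals gave RNA to 1 library, so p-values measure the spread between these libraries.

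The aorta is an elastic conduit artery. Its media alternates smooth muscle with elastin sheets that store energy in each heartbeat. Mesenteric arteries are smaller muscular vessels of the gut circulation, where smooth muscle tone under sympathetic nerves and endothelium sets resistance to flow. AngII acts on smooth muscle and adventitial cells mainly through the type 1 receptor and is a standard way to raise blood pressure and provoke vascular fibrosis in mice.

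Counts assigned to genes came to 17540532 to 27576700 per mesenteric library and 27591671 to 30748465 per aortic library. Both vessels carried smooth muscle markers at a similar summed level, 25421 to 38181 CPM (counts scaled to a common library size) in mesenteric arteries and 17658 to 34014 CPM in aorta over 6 genes. Endothelial markers summed to 2909 to 3657 CPM in mesenteric arteries and 662 to 1002 CPM in aorta, and all 10 were higher in mesenteric arteries. Several libraries carried RNA typical of neighbouring tissue. Pancreatic acinar markers reached 85027 CPM in mesenteric replicate 4, against 20.7 to 148 CPM in the other mesenteric libraries and 6.25 to 10.9 CPM in aorta. B cell markers reached 102 CPM in mesenteric replicate 1, against 5.54 to 9.09 CPM in the others and 0.826 to 2.79 CPM in aorta. Mesothelial markers were at 377 and 207 CPM in mesenteric replicates 2 and 4, against 24.9 and 25.2 CPM in replicates 1 and 3 and 14.1 to 57.2 CPM in aorta. Brown adipocyte markers stood at 64.2 to 86.2 CPM in mesenteric arteries and 256 to 380 CPM in aorta. The gene identifiers of the aortic tables lack the version suffix that those of the mesenteric tables have, so the tables of the vessels were written from differently formatted annotations, and a difference in dissection, library preparation or counting cannot be told apart from a difference between vessels.

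The vessels differed in 32.7% of the genes tested, with similar numbers in each direction. Of 16578 genes tested, 2658 were higher in mesenteric arteries (16%) and 2761 were lower (16.7%) at a Benjamini-Hochberg adjusted p below 0.05 in edgeR's quasi-likelihood test, which is what called means below. With a change of at least 2-fold added, 1589 were higher (9.58%) and 1124 lower (6.78%). The median log2 fold change, mesenteric arteries over aorta, was 0.002 over all genes tested. In 35% of the genes tested, either called or not, the 4 libraries of a vessel lay entirely on one side of the 4 of the other. Scaling by library size alone shifted the median to 0.146, and then 66.4% of the called genes were higher in mesenteric arteries, in place of 49%.

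The groups of genes named in the comparison went apart in different ways. Their lists were drawn up with earlier results of these data known. Of 168 matrix genes tested, 99 were lower in mesenteric arteries (58.9%, against 16.7% of all genes) and 21 were higher (12.5%, against 16%), with a median log2 fold change of -1.06. Of 138 inflammatory genes, 33 were higher (23.9%, against 16% of all genes) and 23 lower (16.7%, the same share as over all genes), with a median of 0.28. Of 130 genes of contraction, its regulators and ion handling, 56 were higher (43.1%) and 22 lower (16.9%), with a median of 0.33. Of 260 genes of receptors and signalling, 100 were higher (38.5%) and 62 lower (23.8%), with a median of 0.26. The counts of single lists below stand beside the same shares over all genes, 16% higher and 16.7% lower.

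**Figure D1:**
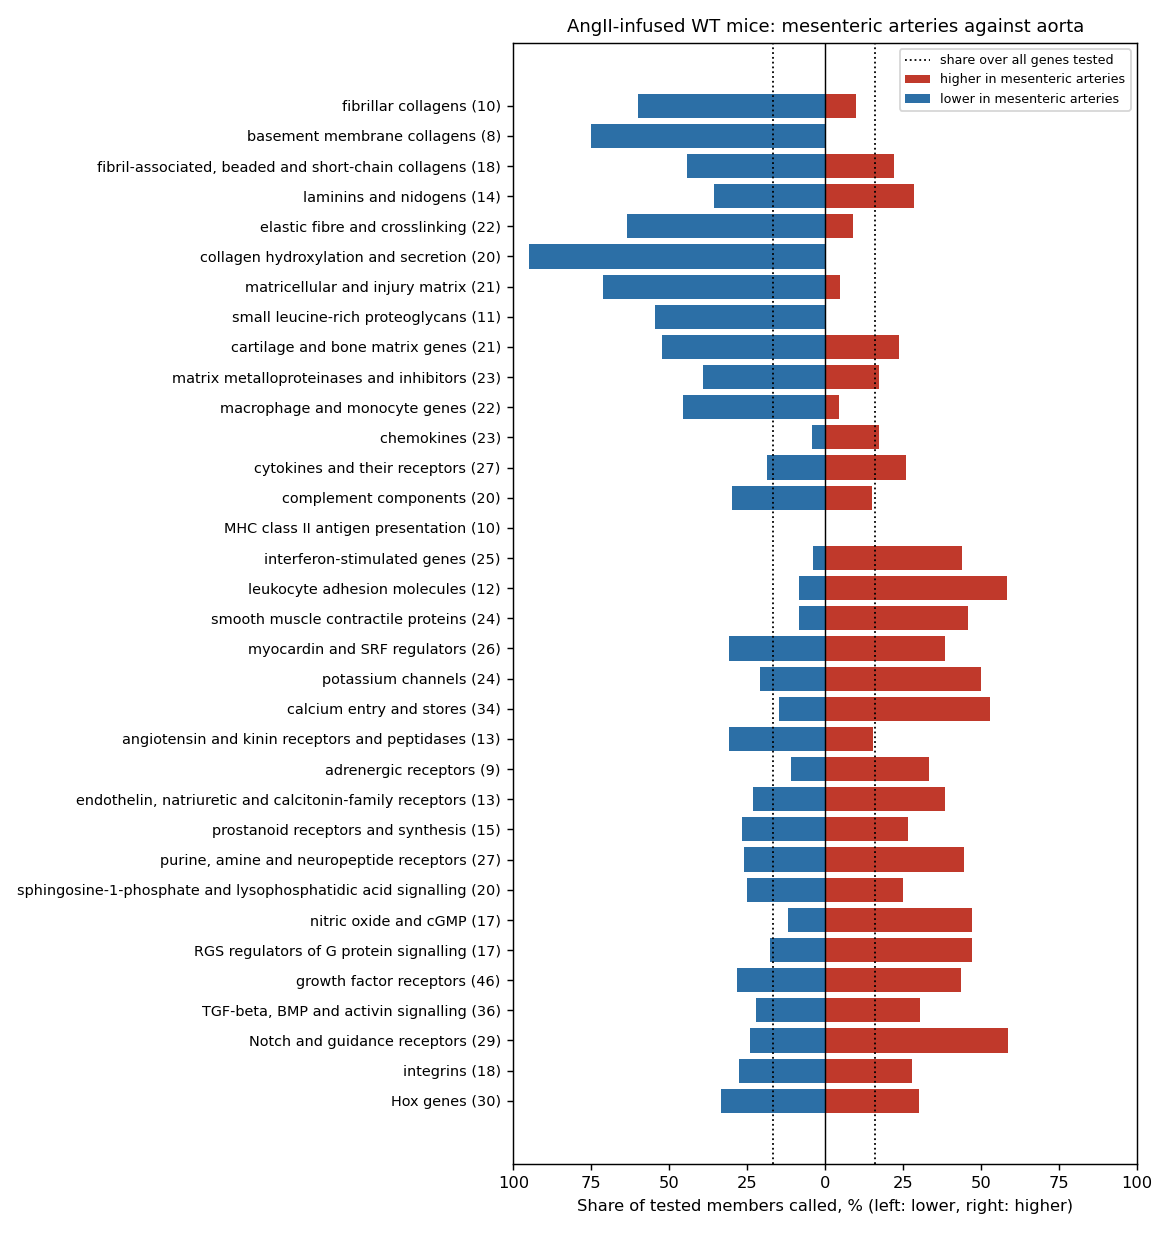
Share of the tested members of gene lists that were called higher (right, red) or lower (left, blue) in mesenteric arteries than in aorta of AngII-infused WT mice, with the number tested in brackets and dotted lines at the shares over all genes, 16% and 16.7%. The matrix lists at the top extend to the left, with 19 of 20 genes of collagen hydroxylation and secretion lower, while the lists of ion channels, Notch and guidance receptors and contractile proteins extend to the right.

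Fibrillar collagens give arteries their tensile strength and are the main product of fibrotic remodelling. Col1a1, the first chain of type I collagen, had 1151, 1211, 1197 and 1101 CPM in mesenteric arteries, against 14765, 8712, 10741 and 7547 CPM in aorta. The lowest aortic library lay far above the highest mesenteric one, and the log2 fold change was -3.16 ± 0.22 (SE; edgeR adjusted p = 1.18e-05). Col3a1, the type III chain typical of distensible vessels, averaged 2729 ± 293 CPM in mesenteric arteries and 16352 ± 6162 CPM in aorta (SD, n = 4 each; log2 fold change -2.58 ± 0.26 SE). Of 10 fibrillar chains tested, 6 were lower in mesenteric arteries, namely Col1a1, Col1a2, Col3a1, Col5a1, Col5a2 and the cartilage chain Col2a1. Col27a1 was the higher one (2 chains were higher without aortic replicate 1), with 118 ± 9.64 CPM in mesenteric arteries and 34.9 ± 7.81 CPM in aorta (log2 fold change 1.76 ± 0.15 SE). Col11a1 held 36.2, 31.6, 35 and 34.4 CPM in mesenteric arteries but 147, 21.5, 50.4 and 5.14 CPM in aorta. Its aortic libraries thus spanned both sides of the mesenteric ones, and it was not called (log2 fold change -0.71 ± 0.82 SE).

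Fibroblasts are the main collagen producers of the adventitia. The summed level of 8 fibroblast markers was 3755 to 5163 CPM in mesenteric arteries and 10873 to 25298 CPM in aorta, but Col1a1 made up most of the aortic sum. Over the 7 markers other than Col1a1 the sums were 2604, 3953, 3128 and 3646 CPM in mesenteric arteries and 10533, 5485, 6558 and 3326 CPM in aorta, and the vessels overlapped. Of the 8 markers, 4 were lower and 1 was higher in mesenteric arteries, and none was higher when mesenteric replicates 1 and 4 were both left out. Pdgfra, a fibroblast surface receptor, had 48.9, 102, 65.8 and 82 CPM in mesenteric arteries, against 219, 190, 145 and 125 CPM in aorta (log2 fold change -1.18 ± 0.25 SE). The aortic excess was thus smaller for Pdgfra than for Col1a1 in these libraries, and the part of fibroblast number in the collagen differences was not tested.

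Basement membrane collagens surround each smooth muscle and endothelial cell. Their main network, the chains Col4a1 and Col4a2, did not separate the vessels. Col4a1 had 2962, 2020, 2978 and 2303 CPM in mesenteric arteries and 1876, 2560, 2723 and 4172 CPM in aorta. The groups overlapped, and the log2 fold change was -0.14 ± 0.25 (SE), turning to 0.014 when libraries were scaled by size alone. The minor chains did separate. Col4a5 averaged 273 ± 30.9 CPM in mesenteric arteries and 794 ± 133 CPM in aorta (SD; log2 fold change -1.54 ± 0.15 SE), and Col4a3, Col4a4 and Col4a6 were lower by log2 fold changes of -1.58, -1.72 and -1.41. Per kilobase of exon, Col4a5 made up 5.86% of the summed type IV chain level in mesenteric arteries and 13.1% in aorta. Col15a1, which links basement membranes to collagen fibrils, was lower too, with 380 ± 39.9 CPM in mesenteric arteries and 1844 ± 543 CPM in aorta. Among laminins, the chains went both ways, with 4 of 14 genes of the laminin and nidogen list higher and 5 lower (2 lower without mesenteric replicates 1 and 4). Lama3, a chain of the laminins found under epithelia, stood at 21.7 ± 3.8 CPM in mesenteric arteries and 3.52 ± 1.25 CPM in aorta (log2 fold change 2.62 ± 0.26 SE).

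Elastic fibres consist of an elastin core on a fibrillin scaffold, crosslinked by lysyl oxidases. Elastin itself, Eln, had 4480, 2912, 4879 and 3767 CPM in mesenteric arteries, against 9036, 10617, 11673 and 16772 CPM in aorta. All aortic libraries were above all mesenteric ones, and the log2 fold change was -1.58 ± 0.24 (SE; edgeR adjusted p = 0.000858). Of the 22 genes of elastic fibres and crosslinking, 14 were lower in mesenteric arteries and 2 were higher (1 without mesenteric replicate 3 or 4 or aortic replicate 1, 2 or 3), with a median log2 fold change of -1.30. Mfap4, a microfibril-associated glycoprotein, was lower by -2.64 ± 0.22, the scaffold protein Fbn1 by -1.70 ± 0.17 and the crosslinking enzyme Lox by -1.93 ± 0.17 on the log2 scale (SE). Efemp1, a fibulin, went the other way, with 43.7, 121, 79.4 and 117 CPM in mesenteric arteries against 18.2, 29, 25.8 and 25.6 CPM in aorta (log2 fold change 1.87 ± 0.31 SE).

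Procollagen is hydroxylated, folded and trimmed before it forms fibrils, and the genes for these steps were lower in mesenteric arteries as well. Of 20 genes, 19 were lower in mesenteric arteries and none was higher, with a median log2 fold change of -1.09. Serpinh1, the collagen chaperone, had 527, 605, 721 and 602 CPM in mesenteric arteries, against 1495, 1248, 1819 and 1214 CPM in aorta (log2 fold change -1.23 ± 0.17 SE). Adamts2, which removes the amino-terminal propeptide of fibrillar procollagens, was lower by -2.19 ± 0.17 on the log2 scale (SE). P4ha3, a prolyl hydroxylase subunit, was the member not called, at 10.7 ± 1.79 CPM in mesenteric arteries and 9.8 ± 3.9 CPM in aorta.

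Matricellular proteins modulate how cells attach to and assemble matrix, and many are induced in injured or loaded tissue. Of 21 such genes, 15 were lower in mesenteric arteries and 1 was higher, with a median log2 fold change of -1.60. Fn1, fibronectin, averaged 4308 ± 918 CPM in mesenteric arteries and 10616 ± 2067 CPM in aorta (SD; log2 fold change -1.30 ± 0.21 SE). Postn, periostin, averaged 1778 ± 238 CPM in mesenteric arteries and 6028 ± 1477 CPM in aorta (log2 fold change -1.76 ± 0.20 SE). Comp, a pentameric thrombospondin of tendon and cartilage that is also made by vascular smooth muscle, had 19.8, 12.6, 19.2 and 14.8 CPM in mesenteric arteries, against 475, 298, 379 and 158 CPM in aorta. Even the lowest aortic value was several times the highest mesenteric one (log2 fold change -4.30 ± 0.35 SE). The exception was Sparcl1, a relative of Sparc abundant in vessel-rich tissue. It had 6886, 5171, 8739 and 6429 CPM in mesenteric arteries, against 484, 715, 537 and 686 CPM in aorta (log2 fold change 3.49 ± 0.22 SE; edgeR adjusted p = 7.02e-06). Sparc itself, a collagen-binding protein, was lower, with 3260 ± 338 CPM in mesenteric arteries and 12711 ± 1406 CPM in aorta. These relatives therefore differed in opposite directions between the vessels.

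Genes of cartilage and tendon also separated the vessels. Acan, aggrecan, the large proteoglycan of cartilage that also occurs in the aortic wall, had 1.97, 1.13, 3.01 and 2.06 CPM in mesenteric arteries, against 170, 133, 133 and 160 CPM in aorta (log2 fold change -6.20 ± 0.27 SE). Scx, a transcription factor of tendon progenitors, averaged 4 ± 0.711 CPM in mesenteric arteries and 32.2 ± 6.82 CPM in aorta, and Mgp, an inhibitor of vascular calcification, averaged 1207 ± 147 CPM in mesenteric arteries and 4541 ± 957 CPM in aorta. Of 21 genes tested in that list, 11 were lower and 5 higher. Sox6, a partner of the chondrogenic factor Sox9, was among the higher ones, at 72.5 ± 10.1 CPM in mesenteric arteries and 14 ± 1.5 CPM in aorta (log2 fold change 2.37 ± 0.13 SE). Of 23 matrix metalloproteinases, ADAMTS proteases and inhibitors, 9 were lower (16.7% of all genes) and 4 higher, a share near the 16% of all genes. Timp1 and Timp4, inhibitors of the same protease family, went apart. Timp1 had 11.7 ± 1.22 CPM in mesenteric arteries and 78.2 ± 22.8 CPM in aorta (log2 fold change -2.75 ± 0.20 SE). Timp4 had 55.6 ± 17.6 CPM in mesenteric arteries and 8.08 ± 1.37 CPM in aorta (log2 fold change 2.78 ± 0.25 SE).

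**Figure D2:**
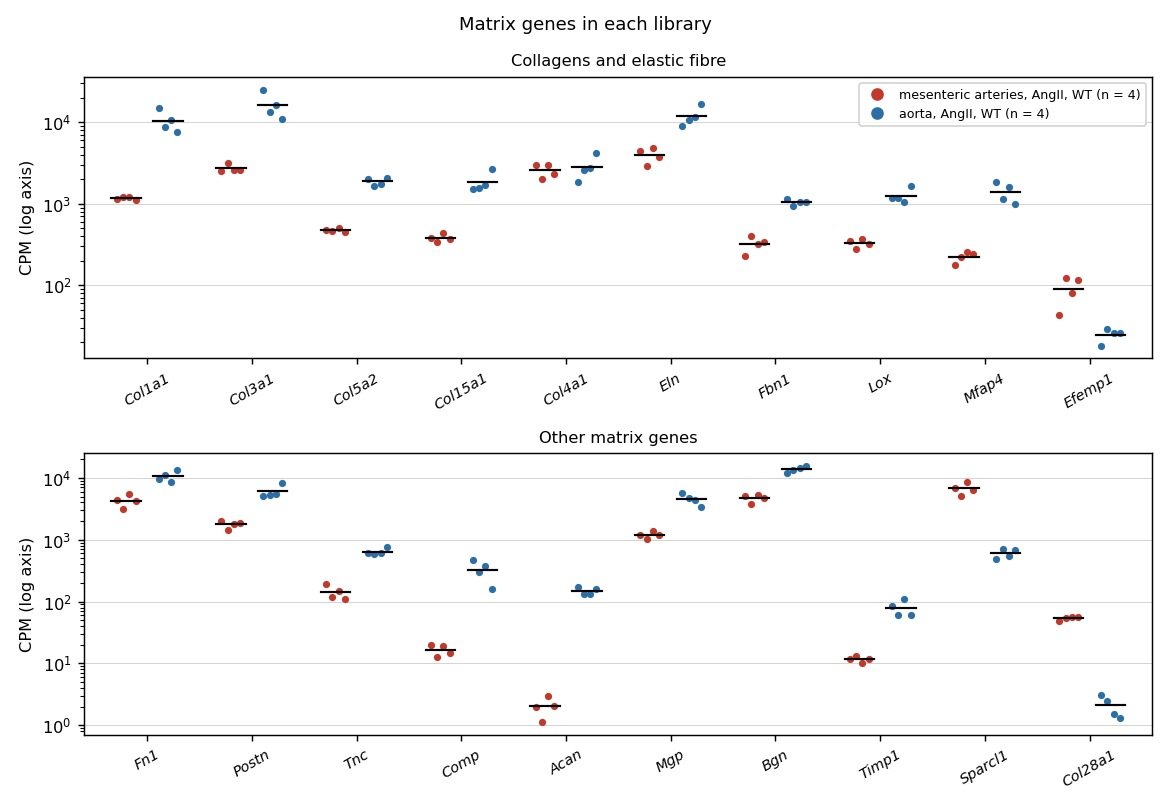
CPM on a log axis of 20 matrix genes in each library of AngII-infused WT mice, mesenteric arteries (red) left of aorta (blue), with black bars at the means of 4 libraries. Most genes sit lower in mesenteric arteries, Acan at 2.04 against 149 CPM on average, while Sparcl1, Col28a1 and Efemp1 sit higher and Col4a1 overlaps.

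Inflammatory genes split by type. Of 22 macrophage and monocyte genes, 10 were lower in mesenteric arteries, 1 was higher and 11 were not called. Calls in either direction thus made up 50% of the list, against 32.7% of all genes. Lyz2, lysozyme of myeloid cells, had 156, 168, 116 and 164 CPM in mesenteric arteries, against 395, 360, 384 and 263 CPM in aorta (log2 fold change -1.22 ± 0.16 SE). Trem2, a lipid-sensing receptor of tissue macrophages, averaged 1.32 ± 0.721 CPM in mesenteric arteries and 6.61 ± 1.83 CPM in aorta. The general macrophage receptor Csf1r showed how much 1 library weighed here. It had 208 CPM in mesenteric replicate 1 and 69.3, 40.4 and 60.3 CPM in the other mesenteric libraries, against 143 to 163 CPM in aorta, and was not called. The single higher gene, Marco, a scavenger receptor, was at 289 CPM in mesenteric replicate 1, the library with the B cell RNA, and at most 1.09 CPM in any other of the 8 libraries. The count of lower macrophage genes was 15 without mesenteric replicate 1, 5 without mesenteric replicate 4, 6 without mesenteric replicate 3 and 6 without aortic replicate 3.

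Endothelial adhesion molecules, which capture leukocytes from the blood, were higher in mesenteric arteries for 7 of 12 genes and lower for 1. The lower call was lost without mesenteric replicate 3 or 4 or any 1 aortic library. Pecam1, a junctional protein of all endothelium, averaged 1252 ± 229 CPM in mesenteric arteries and 305 ± 84 CPM in aorta (log2 fold change 2.04 ± 0.22 SE). Selp, P-selectin, had 45, 69.2, 67.2 and 77.2 CPM in mesenteric arteries, against 15.2, 24.2, 18.8 and 34.9 CPM in aorta (log2 fold change 1.47 ± 0.27 SE). The 10 endothelial markers had a median log2 fold change of 2.02 and the adhesion genes one of 0.67, and the part of endothelial content in these genes was not tested. Of 23 chemokines, 4 were higher, a share near the 16% of all genes, and 1 was lower. The count of lower chemokines was 3 without mesenteric replicate 2 and 2 without replicate 1 of either vessel. Ccl21a, the lymphatic chemokine that recruits dendritic cells and has near-identical copies that reads could not be split between with certainty, had 95.2 ± 15.2 CPM in mesenteric arteries and 11.6 ± 8.75 CPM in aorta. Lymphatic endothelial markers summed to 410 to 565 CPM in mesenteric arteries and 101.1 to 129 CPM in aorta.

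Cytokine and complement genes gave no common direction. Among 27 cytokines and cytokine receptors, 7 were higher and 5 lower in mesenteric arteries, and among 20 complement genes 3 were higher and 6 lower. In either direction 44.4% of the cytokine list and 45% of the complement list were called, against 32.7% of all genes. Without mesenteric replicate 4 the count of lower cytokine genes was 3, and without mesenteric replicates 1 and 4 that of higher ones was 2. Il6ra, the interleukin-6 receptor, averaged 41.1 ± 4.57 CPM in mesenteric arteries and 17.5 ± 3.63 CPM in aorta (log2 fold change 1.23 ± 0.15 SE). Tnfrsf11b, osteoprotegerin, a decoy receptor that restrains bone resorption, averaged 32 ± 1.85 CPM in mesenteric arteries and 140 ± 32 CPM in aorta (log2 fold change -2.13 ± 0.16 SE). None of the 10 tested genes of MHC class II antigen presentation was called by edgeR. Cd74, the class II invariant chain, had 673, 191, 109 and 146 CPM in mesenteric arteries and 495, 241, 203 and 91.2 CPM in aorta, with replicate 1 highest in both vessels.

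Interferon-stimulated genes, the antiviral programme switched on by type I interferon, were higher in mesenteric arteries for 11 of 25 genes and lower for 1, with a median log2 fold change of 0.95. Ifit1, an inhibitor of translation of viral RNA, had 27.4, 18, 14.3 and 17.2 CPM in mesenteric arteries, against 10.7, 4.44, 3.7 and 2.69 CPM in aorta (log2 fold change 1.83 ± 0.43 SE; edgeR adjusted p = 0.0112). Isg15, a ubiquitin-like modifier, had 12.5, 8.15, 7.53 and 8.34 CPM in mesenteric arteries, against 5.84, 2.95, 2.46 and 1.76 CPM in aorta (log2 fold change 1.49 ± 0.36 SE). In both genes the vessels did not overlap, and replicate 1 was the highest library of each vessel. Without a given library the count of higher genes ran between 5 and 18. It was 6 without mesenteric replicate 1, 5 without aortic replicate 2, 5 without aortic replicate 3, 7 without aortic replicate 4 and 18 without aortic replicate 1. It was 2 without mesenteric replicates 1 and 4 together, and Ifit1 and Isg15 then lost their calls (edgeR adjusted p = 0.0668 and 0.0779).

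Promoters of these genes often carry a paired GAAA element, searched here as GAAA, any 2 bases (NN) and GAAA again, or as TTTC, NN and TTTC, its reverse complement, so that both strands count and matches may overlap. RefSeq promoter windows of build GRCm38.p6, which run from 250 bases before a gene's start to 50 bases after it, were on hand for 17 of the 25 genes. The motif was in the windows of 10 of these 17 genes (58.8%), against 3.99% of all 27025 genes with a window. It was in 4 of 9 higher genes with a window and in 6 of 8 that were not called, so its presence did not follow the calls. Stretches of 3 of the higher genes are shown because they carry more than 1 copy of the motif just upstream of the start, with the motif in capitals on the strand of the gene.
Ifit1, chr19:34640755-34640843, plus strand: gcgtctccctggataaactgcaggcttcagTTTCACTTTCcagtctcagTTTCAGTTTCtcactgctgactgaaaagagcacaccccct
Ifit3, chr19:34583343-34583446, plus strand: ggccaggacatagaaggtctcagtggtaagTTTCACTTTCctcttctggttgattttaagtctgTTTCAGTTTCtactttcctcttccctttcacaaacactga
Isg15, chr4:156200845-156200926, minus strand: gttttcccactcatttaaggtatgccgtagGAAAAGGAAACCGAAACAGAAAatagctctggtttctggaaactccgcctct
In Ifit1 and Ifit3 the 2 copies are apart and run on the opposite strand, while in Isg15 the 3 matches overlap in 1 block. These coordinates belong to the older build and are not those of the count tables.

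Contractile proteins showed shared abundance for the major markers and wide gaps for the intermediate filaments. Acta2, smooth muscle alpha-actin, had 13362, 9462, 13843 and 12178 CPM in mesenteric arteries and 8037, 11345, 14757 and 16054 CPM in aorta. The libraries overlapped almost fully, and the log2 fold change was -0.04 ± 0.23 (SE), turning to 0.11 when libraries were scaled by size alone. Tagln, the actin-binding protein SM22-alpha, was not called either, at 7180 ± 1423 CPM in mesenteric arteries and 5890 ± 1391 CPM in aorta. Des, desmin, the muscle intermediate filament that links contractile units, had 2927, 2439, 3317 and 2911 CPM in mesenteric arteries, against 35, 76.1, 102 and 111 CPM in aorta (log2 fold change 5.16 ± 0.37 SE; edgeR adjusted p = 1.43e-05). Synm, synemin, which forms filaments with desmin, followed with 449 ± 41.2 CPM in mesenteric arteries and 63.2 ± 15.8 CPM in aorta (log2 fold change 2.83 ± 0.18 SE). Actg2, the enteric smooth muscle actin, had 784, 962, 1000 and 1159 CPM in mesenteric arteries, against 102, 148, 215 and 216 CPM in aorta (log2 fold change 2.52 ± 0.25 SE). The 4 mesenteric libraries lay close to each other in these 3 genes. Visceral smooth muscle and interstitial cell markers summed to 816 to 1249 CPM in mesenteric arteries and 276 to 370.5 CPM in aorta. Actg2 is itself 1 of these markers and made up most of the sums. It averaged 976 of 1042 CPM in mesenteric arteries and 170 of 327 CPM in aorta. Of 5 markers tested, 3 were higher and 1 was lower. The lower one, Ano1, averaged 43.1 ± 28.1 CPM in mesenteric arteries and 153 ± 18.4 CPM in aorta. The part of such cells in Des, Synm and Actg2 was not tested.

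Myosin and its activating kinase were higher in mesenteric arteries by about 2-fold. Myh11, smooth muscle myosin heavy chain, averaged 9696 ± 1503 CPM in mesenteric arteries and 4740 ± 1272 CPM in aorta (log2 fold change 1.03 ± 0.22 SE). Its call was lost without mesenteric replicates 1 and 4 (edgeR adjusted p = 0.0511). Mylk, myosin light chain kinase, averaged 3400 ± 325 CPM in mesenteric arteries and 1493 ± 381 CPM in aorta (log2 fold change 1.19 ± 0.19 SE). Of the 24 contractile genes, 11 were higher and 2 lower, with 6 higher when mesenteric replicates 1 and 4 were both left out. Prkg1, cGMP-dependent protein kinase type 1, which relaxes smooth muscle, averaged 114 ± 10.1 CPM in mesenteric arteries and 44.7 ± 11.6 CPM in aorta. The lower contractile genes were Itga8, the integrin subunit by which smooth muscle binds fibronectin, and Tagln2. Itga8 had 839, 632, 930 and 791 CPM in mesenteric arteries, against 1791, 2723, 2088 and 3094 CPM in aorta (log2 fold change -1.60 ± 0.21 SE).

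Several transcription factors of embryonic mesenchyme were near absent from one of the vessels. Hand2, a factor of splanchnic and neural crest mesenchyme, had 54.8, 70.5, 56.5 and 65.1 CPM in mesenteric arteries, against 1.99, 1.45, 2.09 and 1.36 CPM in aorta (log2 fold change 5.16 ± 0.17 SE). Nkx2-3, a factor of gut and spleen mesenchyme, averaged 83.4 ± 12.5 CPM in mesenteric arteries and 2.72 ± 0.952 CPM in aorta. In the other direction, Tbx18 averaged 5.3 ± 0.653 CPM in mesenteric arteries and 67.9 ± 15.2 CPM in aorta (log2 fold change -3.68 ± 0.18 SE). Twist1, a factor of cranial and limb mesenchyme, averaged 0.856 ± 0.48 CPM in mesenteric arteries and 23.5 ± 4.47 CPM in aorta. Srf, the serum response factor that drives contractile genes with myocardin, was not called, at 77.2 ± 6.6 CPM in mesenteric arteries and 62.2 ± 16.7 CPM in aorta. In the list of 26 regulators tested, 10 were higher and 8 lower. The count of lower ones was 5 without mesenteric replicate 2, 3 or 4 or aortic replicate 1 or 4.

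Ion channels and pumps set membrane potential and calcium, and thereby tone. Kcna5, a voltage-gated potassium channel that opposes constriction, had 96, 63.2, 104 and 81.7 CPM in mesenteric arteries, against 4.74, 2.98, 3.37 and 2.3 CPM in aorta (log2 fold change 4.68 ± 0.25 SE). Kcna2, a channel of the same family, averaged 174 ± 26.5 CPM in mesenteric arteries and 4.46 ± 2.64 CPM in aorta. Of 24 potassium channel genes, 12 were higher and 5 lower, and of 34 genes of calcium entry and stores 18 were higher and 5 lower. Without mesenteric replicates 1 and 4 the count of lower calcium genes was 1. Without any of mesenteric replicates 1, 3 and 4 or aortic replicate 3, the count of lower potassium channel genes was 3. Pln, phospholamban, which restrains the calcium pump of the sarcoplasmic reticulum, had 124, 180, 158 and 152 CPM in mesenteric arteries, against 2.33, 2.69, 1.94 and 1.94 CPM in aorta (log2 fold change 6.11 ± 0.17 SE; edgeR adjusted p = 1.85e-07). Cacna1h, a T-type calcium channel, averaged 60.6 ± 15.4 CPM in mesenteric arteries and 6.55 ± 2.89 CPM in aorta (log2 fold change 3.21 ± 0.32 SE). The long-lasting calcium channel Cacna1c, the main route of calcium entry, was not called, at 108 ± 12.2 CPM in mesenteric arteries and 85.7 ± 14.8 CPM in aorta, and neither was Kcnma1, the large-conductance potassium channel, at 65.6 ± 9.03 CPM in mesenteric arteries and 55.8 ± 10.1 CPM in aorta.

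Some channel and transmitter genes differed between mesenteric libraries as well as between vessels. Casq2, a calcium-storing protein of the sarcoplasmic reticulum, had 1.76, 45.7, 8.58 and 30.1 CPM in mesenteric arteries, against 0.549, 0.298, 0.183 and 0.647 CPM in aorta. Its call was lost with limma voom (limma voom adjusted p = 0.0859). Abcc9, a subunit of the vascular ATP-sensitive potassium channel, had 61, 162, 57.3 and 115 CPM in mesenteric arteries, against 264, 338, 266 and 294 CPM in aorta (log2 fold change -1.55 ± 0.33 SE). Ano1, a calcium-activated chloride channel, had 23.3, 78.4, 17.8 and 52.7 CPM in mesenteric arteries, against 169, 163, 128 and 152 CPM in aorta (log2 fold change -1.82 ± 0.44 SE). The Ano1 call was lost without mesenteric replicates 1 and 4 (edgeR adjusted p = 0.0768). In all 3, mesenteric replicates 2 and 4 were the higher ones, as they were for the mesothelial marker sum. The part of other tissue in these genes was not tested.

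**Figure D3:**
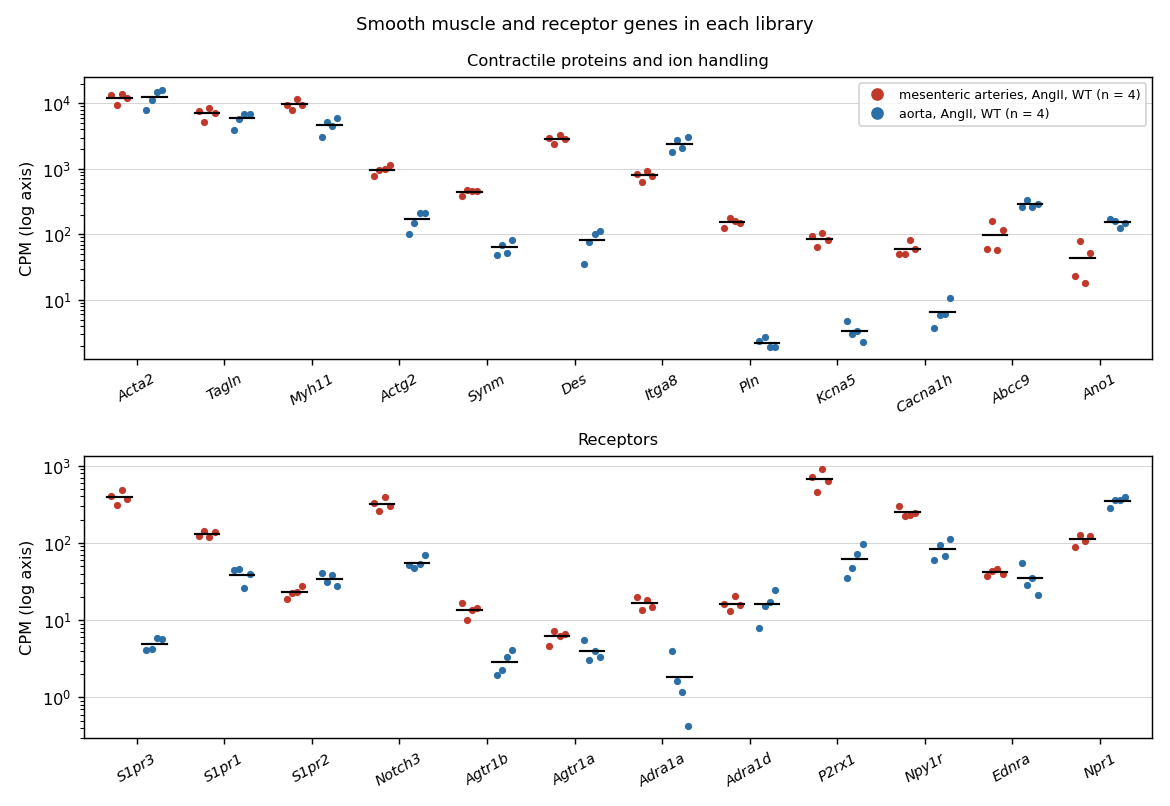
CPM on a log axis of contractile and ion-handling genes (top) and receptors (bottom) in each library of AngII-infused WT mice, mesenteric arteries (red) left of aorta (blue), with black bars at the means of 4 libraries. Acta2 and Tagln overlap while Des, Pln, Kcna5 and S1pr3 stand far apart, S1pr3 at 393 against 4.99 CPM on average.

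Receptors for sphingosine-1-phosphate (S1P), the lipid made by the sphingosine kinases, differed in kind. S1pr3, a receptor coupled to calcium signalling, had 405, 312, 490 and 365 CPM in mesenteric arteries, against 4.16, 4.18, 5.9 and 5.71 CPM in aorta (log2 fold change 6.30 ± 0.21 SE; edgeR adjusted p = 3.34e-07). S1pr1, the main endothelial receptor, averaged 132 ± 11.9 CPM in mesenteric arteries and 38.8 ± 9.04 CPM in aorta (log2 fold change 1.76 ± 0.17 SE). S1pr2, which opposes cell migration, was lower, at 23.1 ± 3.59 CPM in mesenteric arteries and 34.3 ± 6.03 CPM in aorta (log2 fold change -0.57 ± 0.15 SE; edgeR adjusted p = 0.0183, but 0.0513 without aortic replicate 3 and 0.0537 without mesenteric replicates 1 and 4). Per kilobase of exon, S1pr3 made up 64.2% of the summed level of the 5 S1P receptor genes in mesenteric arteries and 5.96% in aorta, while S1pr1 made up 31.5% in mesenteric arteries and 68% in aorta. Spns2, the endothelial S1P exporter, averaged 47.4 ± 9.96 CPM in mesenteric arteries and 10.9 ± 2.58 CPM in aorta. Sphk1 itself, the gene deleted elsewhere in the study, had 13.4, 16.8, 12.8 and 9.27 CPM in mesenteric arteries and 24.5, 23.2, 16.3 and 11.8 CPM in aorta. These overlapped, and Sphk1 was not called (log2 fold change -0.54 ± 0.26 SE; edgeR adjusted p = 0.142). Of 20 genes of S1P and lysophosphatidic acid signalling, 5 were higher and 5 lower. The count of lower ones was 3 without mesenteric replicate 3 or 4 2 without aortic replicate 3 and 1 without mesenteric replicates 1 and 4.

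Mice have 2 type 1 angiotensin receptor genes, and they behaved differently. Agtr1b had 16.5, 9.92, 13.7 and 14.5 CPM in mesenteric arteries, against 1.96, 2.24, 3.3 and 4.09 CPM in aorta (log2 fold change 2.23 ± 0.26 SE; edgeR adjusted p = 0.000194). Agtr1a had 4.66, 7.15, 6.25 and 6.67 CPM in mesenteric arteries and 5.53, 3.02, 3.96 and 3.31 CPM in aorta, and was not called (log2 fold change 0.65 ± 0.23 SE; edgeR adjusted p = 0.0567). Per kilobase, Agtr1b was 74.1% of the pair in mesenteric arteries and 48.7% in aorta, with the limit that the coding parts of these genes are alike and reads may be split between them. Ace, the enzyme that makes AngII, was lower, at 336 ± 65.8 CPM in mesenteric arteries and 940 ± 87.8 CPM in aorta (log2 fold change -1.49 ± 0.16 SE). Of 13 genes of angiotensin and kinin receptors and peptidases, 2 were higher, a share near the 16% of all genes, and 4 were lower (16.7% of all genes). The count of higher ones was 5 without mesenteric replicate 1 and 4 without aortic replicate 1, and that of lower ones was 2 without mesenteric replicates 1 and 4.

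Of 9 adrenergic receptors, 3 were higher in mesenteric arteries and 1 was lower, and of 27 purine, amine and neuropeptide receptors 12 were higher and 7 lower. Called in either direction were 44.4% of the first list and 70.4% of the second, against 32.7% of all genes. Without aortic replicate 3 the count of lower genes in the second list was 4, and it was 3 without mesenteric replicates 1 and 4. Adra1a, an alpha-1 receptor of resistance arteries, had 19.9, 13.6, 18.4 and 14.7 CPM in mesenteric arteries, against 4.02, 1.64, 1.17 and 0.431 CPM in aorta (log2 fold change 3.19 ± 0.55 SE). Adra1d, the alpha-1 receptor of large arteries, did not separate the vessels, at 16.2 ± 2.99 CPM in mesenteric arteries and 16.1 ± 6.73 CPM in aorta. Adra2c averaged 11.9 ± 2.8 CPM in mesenteric arteries and 0.879 ± 0.435 CPM in aorta. P2rx1, the ATP-gated channel at sympathetic junctions, had 704, 461, 904 and 629 CPM in mesenteric arteries, against 35.3, 46.9, 72.8 and 95.8 CPM in aorta (log2 fold change 3.43 ± 0.35 SE). Npy1r, the receptor for the co-transmitter neuropeptide Y, averaged 249 ± 33.8 CPM in mesenteric arteries and 83.8 ± 23.9 CPM in aorta (log2 fold change 1.57 ± 0.20 SE). The lower adrenergic gene was Adrb3, a beta receptor of fat, and its call was lost without any 1 library but aortic replicate 4. Schwann cell markers summed to 576 to 842 CPM in mesenteric arteries and 284 to 379 CPM in aorta, with 6 of 7 higher.

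Receptors of vasoactive peptides and of nitric oxide signalling were mixed. Ednrb, the endothelin B receptor, averaged 47.1 ± 16.5 CPM in mesenteric arteries and 10.8 ± 2.76 CPM in aorta (log2 fold change 2.12 ± 0.29 SE). Ednra, the constricting endothelin A receptor, was not called, at 41.6 ± 3.58 CPM in mesenteric arteries and 34.9 ± 14.1 CPM in aorta. Npr1, the guanylyl cyclase receptor for atrial natriuretic peptide, had 89.7, 125, 105 and 124 CPM in mesenteric arteries, against 282, 358, 358 and 392.5 CPM in aorta (log2 fold change -1.65 ± 0.14 SE). Of 13 genes of that family, 5 were higher and 3 lower, and the count of higher ones was 3 without mesenteric replicate 2, 3 or 4 or aortic replicate 2 or 3. Nos3, endothelial nitric oxide synthase, averaged 230 ± 52.8 CPM in mesenteric arteries and 49 ± 7.64 CPM in aorta, a log2 fold change of 2.23 ± 0.18 (SE). Ptgs2, the inducible cyclooxygenase, averaged 7.37 ± 0.941 CPM in mesenteric arteries and 41.2 ± 22.2 CPM in aorta (log2 fold change -2.48 ± 0.36 SE). RGS proteins end G protein signals, and 8 of 17 were higher and 3 lower. Rgs6 averaged 20.4 ± 2.35 CPM in mesenteric arteries and 1.36 ± 0.366 CPM in aorta, while its close relative Rgs7 averaged 1.48 ± 0.595 CPM in mesenteric arteries and 21.3 ± 3.69 CPM in aorta. The log2 fold changes of this pair were 3.90 ± 0.20 and -3.83 ± 0.29 (SE).

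Notch and guidance receptors were higher in mesenteric arteries for 17 of 29 genes and lower for 7, with a median log2 fold change of 0.75. Several members are expressed in endothelium or pericytes. All 10 endothelial markers were higher, while pericyte markers went both ways. Of 6 pericyte markers, 4 were higher, Notch3 itself among them, and 2 were lower, Abcc9 among them. Only 1 was lower in 13 of the alternative fits. These included library size alone, the replicate block, some fits without 1 library and the fit without mesenteric replicates 1 and 4. Their sum was 1540 to 2297 CPM in mesenteric arteries and 962 to 1125 CPM in aorta. The part of these cells was not tested. Notch3, the receptor that matures and maintains arterial smooth muscle of small vessels, had 325, 258, 390 and 304 CPM in mesenteric arteries, against 51.3, 47.7, 52.8 and 69.1 CPM in aorta (log2 fold change 2.53 ± 0.16 SE). Notch2, a related receptor, was lower, at 88.3 ± 4.39 CPM in mesenteric arteries and 134 ± 22.6 CPM in aorta. Per kilobase, Notch3 made up 59.8% of the 4 Notch receptors in mesenteric arteries and 28.7% in aorta, and Notch2 made up 12.4% in mesenteric arteries and 52.3% in aorta. Jag1, a ligand of these receptors, averaged 156 ± 29.7 CPM in mesenteric arteries and 58.1 ± 7.02 CPM in aorta.

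Growth factor receptors and the TGF-beta family also held pairs that switched between vessels. Erbb3, a neuregulin receptor typical of Schwann cells, averaged 64.1 ± 13.1 CPM in mesenteric arteries and 2.09 ± 0.658 CPM in aorta (log2 fold change 4.94 ± 0.25 SE). Erbb4, another neuregulin receptor, averaged 0.838 ± 0.0863 CPM in mesenteric arteries and 9.28 ± 1.36 CPM in aorta (log2 fold change -3.46 ± 0.18 SE). Bmpr1b, a BMP receptor, had 0.828, 0.741, 0.602 and 1.55 CPM in mesenteric arteries, against 25.9, 33.9, 25.7 and 41 CPM in aorta (log2 fold change -5.09 ± 0.30 SE). Grem1, a secreted BMP antagonist, was highest in mesenteric replicates 2 and 4, with 9.52, 154, 22.9 and 90.5 CPM in mesenteric arteries against 0.79, 0.0746, 0.22 and 0.144 CPM in aorta. Its call was lost with limma voom (limma voom adjusted p = 0.095). Of 46 growth factor and receptor genes 20 were higher and 13 lower, and of 36 TGF-beta, BMP and activin genes 11 were higher and 8 lower. Of 18 integrins 5 were higher and 5 lower (2 lower without mesenteric replicates 1 and 4). Calls in either direction made up 71.7%, 52.8% and 55.6% of these lists, against 32.7% of all genes. Itgb4, the laminin-binding integrin subunit of epithelia, endothelium and Schwann cells, averaged 198 ± 32.1 CPM in mesenteric arteries and 22.1 ± 3.99 CPM in aorta. Itgb5, a vitronectin-binding subunit, averaged 247 ± 32.1 CPM in mesenteric arteries and 834 ± 118 CPM in aorta (log2 fold change -1.75 ± 0.15 SE).

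Hox genes lie in 4 clusters in which the paralogue number follows position along the body axis, low numbers anterior and high numbers posterior. Of 30 tested, 9 were higher and 10 lower in mesenteric arteries, with 6 lower when mesenteric replicates 1 and 4 were both left out. Of the 9 genes numbered 9 to 13, 7 were higher and none was lower, with a median log2 fold change of 3.41. Of the 21 numbered 1 to 8, 2 were higher and 10 lower, with a median of -0.32, and both higher ones were in the Hoxd cluster. The split after number 8 was chosen with the values in view, so no test is given. Hoxa10 had 8.48, 5.03, 14.2 and 4.03 CPM in mesenteric arteries, against 0.309, 0.783, 0.879 and 1.01 CPM in aorta (log2 fold change 3.41 ± 0.50 SE). Hoxa11 had 2.38, 1.39, 2.11 and 0.964 CPM in mesenteric arteries and no count in any aortic library, which makes it at least 63.3-fold higher against a limit of 3 counts over the 4 aortic libraries. An antisense gene overlaps it, and reads of the pair cannot be told apart without knowing how the counting treated strand, a setting not given in the sources used here. Hoxa7 had 19.2, 16, 27.9 and 22.1 CPM in mesenteric arteries, against 62.3, 51, 70.8 and 50.9 CPM in aorta (log2 fold change -1.46 ± 0.18 SE), and Hoxb8 was lower by -1.61 ± 0.20 on the log2 scale. Hoxc8 was not called, at 20.6 ± 3.88 CPM in mesenteric arteries and 13.7 ± 5.48 CPM in aorta.

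**Figure D4:**
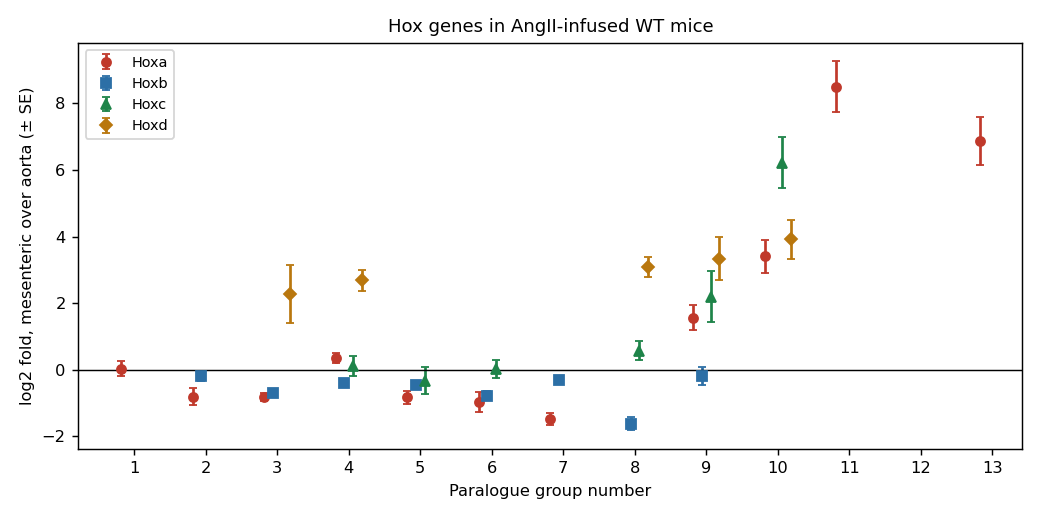
Log2 fold change of each tested Hox gene, mesenteric arteries over aorta in AngII-infused WT mice (bars: SE), against its paralogue group number, coloured by cluster. Genes of groups 9 to 13 sit mostly above 0, with a median of 3.41, while those of groups 1 to 8 have a median of -0.32 and, apart from the Hoxd genes, sit near or below 0.

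Genes with the largest fold changes among all those called included markers of other tissues. The 10 largest increases in mesenteric arteries were Ctrb1, Cela3b, Rnase1, Zg16, Cel, Hpse2, Ctrl, Marco, Reg3b and Fabp2. Among the digestive enzymes of pancreas, mesenteric replicate 4 set the size of the fold, as Ctrb1 shows with 1.76, 24.1, 8.39 and 17456 CPM in mesenteric arteries. Without that library Ctrb1 was still called (edgeR adjusted p = 0.0013), as were Cela3b, Rnase1, Zg16, Cel and Ctrl. The calls of Ctrb1, Cela3b, Rnase1, Cel, Ctrl and Marco were lost when any 1 aortic library was left out. Hpse2, a heparanase-like protein that regulates smooth muscle and its innervation, varied little between libraries, with 63.7, 40.6, 76.2 and 50 CPM in mesenteric arteries and no count in aorta. The 10 largest decreases were Ucp1, Slc4a10, Sfrp2, Wnt16, Ccdc152, Chrna1, Acan, Cdh18, Myoz2 and Angptl1. Ucp1, the uncoupling protein of brown fat, had no count in mesenteric arteries and 116, 75.4, 104 and 15.7 CPM in aorta, which makes it at least 2609-fold lower in mesenteric arteries against a limit of 3 counts over the 4 libraries. Sfrp2, a secreted Wnt modulator, had 1.4, 3.19, 2.22 and 2.6 CPM in mesenteric arteries, against 643, 543, 620 and 493 CPM in aorta (log2 fold change -7.91 ± 0.27 SE). Wnt16, a Wnt ligand, had 0.931, 0.451, 0.301 and 1.01 CPM in mesenteric arteries, against 72.1, 77.6, 52.4 and 87.6 CPM in aorta (log2 fold change -6.80 ± 0.33 SE). Ccdc152 overlaps Selenop on the other strand, so its reads are uncertain. Galnt2, an enzyme that starts mucin-type glycosylation, was picked out after its values were seen, since it varied so little within a vessel. It had 146, 137, 163 and 148 CPM in mesenteric arteries and 0.652, 0.671, 0.55 and 0.467 CPM in aorta, and whether the differently written gene tables account for the gaps in Hpse2 and Galnt2 was not tested.

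Most of these tissue differences had the same direction in groups that shared no library with this comparison. In a fit of all 26 libraries, 2647 of the 2658 genes higher in mesenteric arteries of WT AngII mice also had a positive log2 fold change between the vessels of KO AngII mice, and 2577 had one in WT sham mice. Of the 2761 lower genes, 2738 had a negative one in KO AngII mice and 2615 in WT sham mice. The tissue difference in KO AngII mice minus that in WT AngII mice passed edgeR's threshold for 0 of 18520 genes (0%). Of these, 749 had an unadjusted edgeR p below 0.05, fewer than the share of 0.05 that chance alone gives, and DESeq2 called 15.

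Against sham, the tissue difference did change for some genes, matrix genes of the lists among them. The lists were drawn up with earlier results of these data known, so counts of their members give no test. The tissue difference in WT AngII mice minus that in WT sham mice was called for 434 of 18520 genes (2.34%), with 308 more negative (1.66%) and 126 more positive (0.68%). Scaled by library size alone, 183 were more negative and 188 more positive. Of the 168 matrix genes in the lists, 41 were more negative and 0 more positive, against 14 more negative and 5 more positive of the 260 receptor genes, 5 more negative and 0 more positive of the 138 inflammatory genes and 3 in each direction of the 130 contractile ones. Leaving out 1 of the 16 libraries of the contrast gave 227 to 628 genes in all, the lowest without WT sham aorta replicate 4 and the highest without WT AngII aorta replicate 4.

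For 306 of the 308 more negative genes, AngII against sham was called up in aorta in the fit of all libraries. In mesenteric arteries 1 of the 308 was called up and 0 down. Of the 126 more positive genes, 114 were called down in aorta. In mesenteric arteries 6 of the 126 were called up and 1 down. The genes were picked by a contrast of these same libraries, so the counts describe the selection. The changes against sham took several forms. Of the 434 genes, 70 were lower in mesenteric arteries under AngII and not called under sham, and 53 were lower in both with a larger gap under AngII. Col1a1 was of the second kind, with a log2 fold change of -3.16 ± 0.24 under AngII and -1.24 ± 0.22 under sham (SE, fit of all libraries), a difference of -1.92 (edgeR adjusted p = 0.00133). Another 84 were higher in mesenteric arteries under sham and not called under AngII. Col8a1, a network-forming collagen of vessel walls, had a log2 fold change of -0.53 ± 0.34 under AngII and 2.77 ± 0.37 under sham, and Thbs1, an activator of latent TGF-beta, had 0.30 ± 0.23 under AngII and 2.45 ± 0.24 under sham. A further 37 were called with opposite sign. Cthrc1, a secreted protein of activated fibroblasts, had -3.41 ± 0.46 under AngII and 1.90 ± 0.50 under sham. Among the 126 more positive genes, Gucy1a1, a subunit of the nitric oxide receptor soluble guanylyl cyclase, had 0.78 ± 0.14 under AngII and -0.20 ± 0.14 under sham (edgeR adjusted p of the difference 0.00888).

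The matrix genes with the widest change varied between aortic libraries. Thbs4, a thrombospondin of stressed tissue, had 17.9, 20.2, 14.6 and 17 CPM in mesenteric arteries and 257, 38.7, 227 and 0.431 CPM in aorta of WT AngII mice. Its aortic libraries included both the highest and the lowest values of the comparison, so it was not called in the main comparison while its change against sham was (log2 difference -6.63, edgeR adjusted p = 0.0248). Fbn2, a fibrillin of developing tissue, had 3.1, 7.54, 1.47 and 3.35 CPM in mesenteric arteries and 24.4, 1.6, 10.3 and 0 CPM in aorta, with replicate 4 lowest again. Sphk1 was among the changed genes, with a tissue difference of -0.53 ± 0.25 under AngII and 0.80 ± 0.25 under sham (log2 difference -1.33, edgeR adjusted p = 0.044). Its level in the fit of all libraries was 2.81 to 4.62 CPM in mesenteric arteries and 1.78 to 3.43 CPM in aorta of KO AngII mice, and 7.15 to 9.12 CPM in mesenteric arteries and 3.17 to 6.19 CPM in aorta of WT sham mice. Both vessels of KO AngII mice thus lay below those of WT AngII mice, as the genotype labels say.

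**Figure D5:**
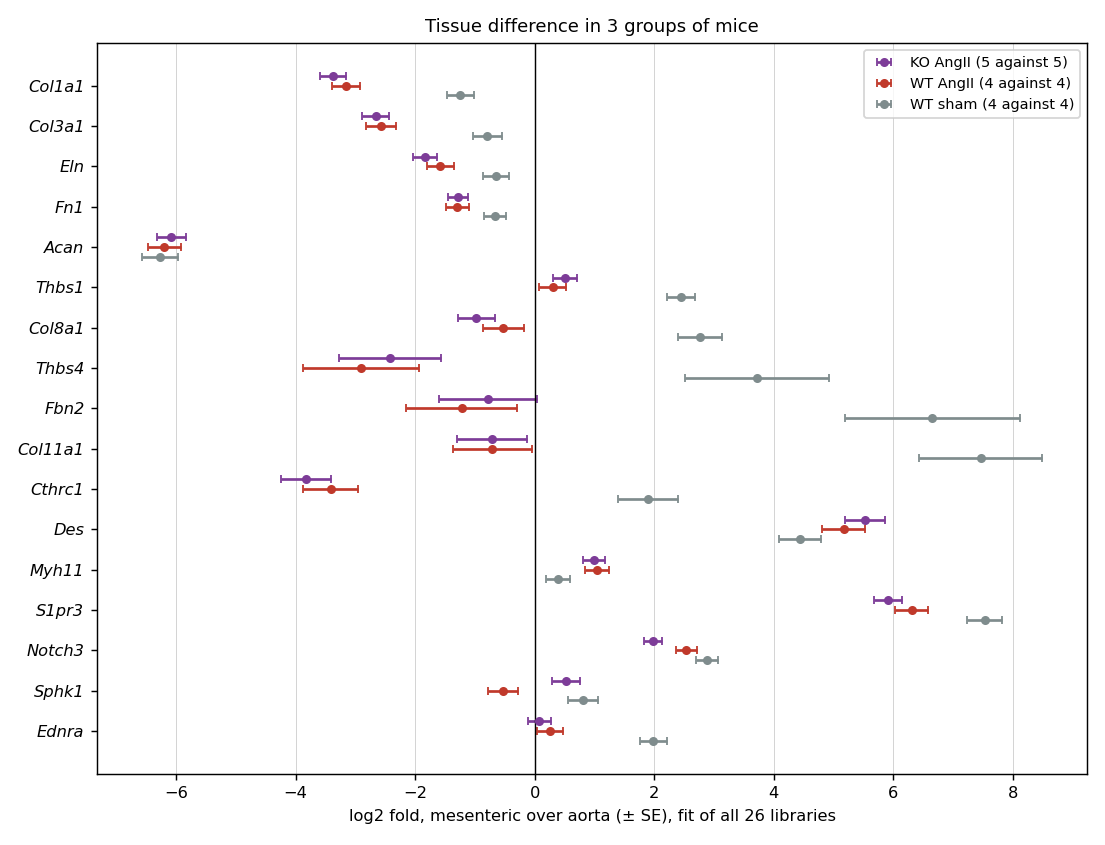
Log2 fold change, mesenteric arteries over aorta, of 17 genes in KO AngII (purple), WT AngII (red) and WT sham mice (grey), from the fit of all 26 libraries (bars: SE). For most genes KO AngII lies near WT AngII. Sphk1 is at 0.53 in KO AngII and -0.53 in WT AngII, a change that edgeR did not call, as for all 18520 genes. Col1a1, Thbs1, Col8a1 and Cthrc1 lie further left under AngII than under sham, and Acan and Des hold their side in all groups.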

How the data were processed

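RNA-seq of mesenteric arteries and aorta was deposited as 1 table of counts per library. Per the labels, poly(A) RNA was purified with a PureLink micro kit, made into directional NEBNext Ultra II libraries and sequenced in pairs on a NovaSeq instrument. Per the submitters' processing notes, cutadapt, HISAT2 and HTSeq were used with build GRCm39. Their versions, the release of the gene annotation and how strand was treated were not given in the sources used here. Deposited values are raw counts per gene identifier, and the 5 summary lines of HTSeq were left out of library sizes and tests. Reads that were not aligned made up 12.02% of mesenteric WT AngII replicate 1, the library with the fewest gene counts. They made up 0.855% to 1.16% of the other mesenteric WT AngII libraries and 0.572% to 0.729% of the aortic ones.

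Version suffixes were removed and the 55414 shared identifiers joined, 52081 of them with a symbol. Libraries were grouped by their labels. Genes passing filterByExpr were tested with edgeR 4.0.16 (R 4.3.3), TMM factors and the robust quasi-likelihood test, with Benjamini-Hochberg adjustment over all genes of the fit. The main fit held the 8 WT AngII libraries, and the changes against sham and KO were contrasts in 1 fit of all 26 libraries. CPM values use TMM-scaled library sizes. For genes with no count in a vessel, a floor of 3 counts over the group gave the bound on the fold. Precision follows from depth only for counting error, and the spread between libraries is in the errors given. The fit was tested on simulated counts with 200 changed genes and recovered 22.4%, 67.2% and 92.4% of changes of 1.5-fold, 2-fold and 4-fold in the main comparison, with 6 false calls among 16333 genes. In the data 32.7% of the genes were called, and some libraries carried RNA of other tissue, which the simulation did not include. Its rates therefore need not hold for the comparison itself.

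Members and gene lists were chosen with earlier results of these data known. Genes named are a selection from the 10 largest increases and 10 largest decreases among called genes whose vessels did not overlap, up to 6 called members of each list with the largest changes, its most abundant members called or not, the leading genes of the contrasts, and Sphk1. Fbn1, Postn, Mylk, Srf, Cacna1h, Cacna1c, Agtr1a, Notch2, Jag1, Hoxa11 and Galnt2 fall outside that rule and were named after their values were seen. Alternatives were other scalings, DESeq2 1.42.0, limma 3.58.1 with voom, other filters on low counts, all libraries in the fit, a replicate block, and leaving out each library. Leaving out mesenteric replicates 1 and 4 together was added after seeing the data.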

Additional observations from a re-analysis of the deposited data

Results flagged for a closer look

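For 25 of the genes named, the log2 tissue difference (mesenteric arteries minus aorta) in WT AngII mice differed from that in WT sham mice by an edgeR contrast over all genes, and 24 of them were more negative under AngII. The difference of differences was -0.84 for Ace, -8.17 for Col11a1, -0.86 for Col15a1, -1.92 for Col1a1, -1.40 for Col1a2, -1.65 for Col28a1, -3.93 for Col2a1, -1.78 for Col3a1, -0.86 for Col5a1, -1.32 for Col5a2, -3.29 for Col8a1, -1.91 for Comp, -5.30 for Cthrc1, -1.72 for Ednra, -7.88 for Fbn2, -1.10 for Lox, -3.07 for P4ha3, -1.23 for S1pr3, -1.34 for Sparc, -1.33 for Sphk1, -2.14 for Thbs1, -6.63 for Thbs4, -1.50 for Timp1 and -1.32 for Tnfrsf11b. It was 0.98 for Gucy1a1. Since genes were named partly for this contrast, their number describes the selection.

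In 30 of 320 groups of 4 libraries, 1 library stood apart. Its gap to the nearest of the others exceeded the Dixon critical value as a share of the whole range. For independent groups of normal values chance gives about 1 in 20. These groups hold genes named for their values and several genes of the same tissue, so that rate is no measure of the 30. Aortic replicate 4 was lowest for Ccdc152 (gap 0.840) and the summed kidney and adrenal markers (gap 0.868). Mesenteric replicate 1 was highest for Cd74 (gap 0.856), Isg15 (gap 0.836), Marco (gap 0.999), the summed B cell markers (gap 0.963) and the summed T cell markers (gap 0.954). Mesenteric replicate 4 was highest for Cel (gap 0.998), Cela3b (gap 0.999), Ctrb1 (gap 0.999), Ctrl (gap 0.999), Rnase1 (gap 0.999), Zg16 (gap 0.970) and the summed pancreatic acinar markers (gap 0.999). Aortic replicate 2 was highest for Cela3b (gap 1.000), Marco (gap 1.000) and Zg16 (gap 1.000). Cela3b had 1 count and Marco 2 counts over the 4 aortic libraries, so these gaps rest on those counts alone. Aortic replicate 4 was highest for Col15a1 (gap 0.839), Postn (gap 0.904), Spns2 (gap 0.965) and Srf (gap 0.831). Mesenteric replicate 2 was highest for Col1a2 (gap 0.850), Col3a1 (gap 0.862) and the summed intestinal epithelial markers (gap 0.898). Aortic replicate 1 was highest for Ctrl (gap 0.937) and Ifit3 (gap 0.884). Mesenteric replicate 1 was lowest for Mylk (gap 0.955). Aortic replicate 3 was highest for Rgs6 (gap 0.851) and Rnase1 (gap 1.000), which had 1 count over the 4 aortic libraries. Aortic replicate 3 was lowest for the summed lymphatic endothelial markers (gap 0.887). The parts of other tissue and of sampling at low counts in the other gaps were not tested.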

How the results depend on the processing

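Between the vessels of WT AngII mice, leaving out 1 library gave 2154 to 2877 higher and 2209 to 2796 lower genes. The count of lower genes was 1763 with library size alone and 1694 without mesenteric replicates 1 and 4. The count of tissue differences changed against sham was 867 with DESeq2, 1251 with limma voom, 272 with no filter on low counts, 136 without mesenteric replicates 1 and 4, and 227 to 628 when 1 library was left out. The count of those changed in KO against WT was 15 with DESeq2 and 0 to 0 when 1 library was left out. The cause of these moves was not tested. Of 136 genes named and tested, 116 were called, 97 of these stayed called in all fits that gave an adjusted p, and 0 called genes changed sign.

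Some genes that were not called changed sign. Acta2 was at 0.110 with library size alone, 0.073 with limma voom and -0.200 to 0.124 when 1 library was left out. Col4a1 was at 0.014 with library size alone and -0.294 to 0.127 when 1 library was left out. Cd74 was at -0.356 with limma voom, -0.026 with the replicate block, -0.780 without mesenteric replicates 1 and 4, and -0.793 to 0.650 when 1 library was left out. Col11a1 was at 0.390 with limma voom, 0.087 with the replicate block and -1.071 to 0.419 when 1 library was left out. Fbn2 was at 0.944 with limma voom. Adra1d was at -0.002 with no filter on low counts and -0.216 to 0.293 when 1 library was left out, and P4ha3 at -0.056 to 0.345.

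Replicate numbers were not taken to pair the vessels. Deviations of same-numbered WT AngII libraries correlated at 0.139, 0.177, 0.156 and 0.0435 over 13386 genes, and replicates 3 and 4 correlated best with the other's number. With the replicate block, 2586 genes were higher, 2619 were lower and 190 tissue differences changed against sham. Among the genes named, the block ended the calls of S1pr2 (edgeR adjusted p = 0.0531) and Ctrl (0.0979). It gave 18 higher interferon-stimulated genes, 3 lower potassium channel genes and 3 lower chemokines.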
